A study of Mus musculus with 31 samples.

Results

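Genes of melanin synthesis and of the pigment epithelium were followed in embryonic mouse eyes: Mitf, Tyr, Tyrp1, Dct, Slc45a2, Oca2, Mlana, Gpnmb, Trpm1 and Rpe65. They are 10 of the 20130 named genes on the array, and their probes were found by the gene name that the array files give, with control spots left out. Their 16 probes, 60 bases each, were all accounted for, and 14 of them were well above background (brighter than the local background by the scanner software's own test) in at least 3 of the 20 eyes and were tested.

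The eyes came from E13.5 embryos on a C57BL/6N background: 3 WT females (numbered 1, 2 and 4), 3 WT males, 3 Ftx-/Y males and 11 Ftx-/- females. Ftx is a long non-coding RNA gene near Xist on the X chromosome. The targeted allele, made in embryonic stem cells, also removes the microRNAs miR-374 and miR-421 that lie in an Ftx intron, so both mutant groups lack these as well as Ftx. All eyes looked normal, and the pigmented epithelial layer was taken off by surgery before RNA was extracted. The study's methods describe hybridization in duplicate; the values used here come from 2 arrays for each Ftx-/- eye and from 1 array for each of the other eyes.

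The genotype was checked on 2 Ftx probes. The signal of A_55_P2175002 was 101 ± 44.8 (SD, n = 3) in WT females, 106 ± 4.53 (SD, n = 3) in WT males, 16.5 ± 2.93 (SD, n = 3) in Ftx-/Y males and 21.7 ± 10.997 (SD, n = 11) in Ftx-/- females, where it was well above background on 9 of 22 arrays. A_55_P2175007 passed the background test in 2 of the 3 WT females but in none of the WT or Ftx-/Y males, whose signals overlapped (13.8 to 22.1 in WT and 6.39 to 18.6 in Ftx-/Y), so it checks nothing in males; in Ftx-/- females it passed on 1 of 22 arrays. The tissue label was checked on marker genes: all 10 lens genes and all 10 neural retina genes looked at were well above background in all 20 eyes. No slide held both WT and Ftx-/- females. Slide 1, scanned on a day of its own, carried every WT eye together with Ftx-/Y eye 1. Slide 2 carried the remaining Ftx-/Y eyes and the Ftx-/- eyes numbered 1, 2 and 3. Slides 3 and 4 carried Ftx-/- eyes only, numbered 4 through 7 and 8 through 11. Whether the eyes of a group came from separate embryos, or the embryos shared litters, is not given in the sources used here. A numbered female or male below is thus 1 eye, and the p-values measure the spread between these eyes.

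Pigment cells make melanin inside melanosomes, organelles related to lysosomes. In the eye at this stage they form the retinal pigment epithelium, a single cell layer behind the neural retina, and pigment cells of neural crest origin settle around the eye. MITF, a basic helix-loop-helix leucine zipper factor, is needed for the fate of both kinds of pigment cell and binds the letters CATGTG in front of several melanin genes. Tyrosinase (Tyr) starts melanin synthesis from tyrosine, and Dct and Tyrp1 act on later intermediates. Slc45a2 and Oca2 encode transporters that set the conditions inside the melanosome, Mlana and Gpnmb encode membrane proteins of melanosomes, and Trpm1 encodes a cation channel that pigment cells share with bipolar cells of the mature retina. Rpe65 encodes the isomerase of the visual cycle, a gene of mature pigment epithelium.

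The sequences in front of 4 of these genes are shown because they hold the longer of the MITF letter motifs searched. They are the 250 bases before the start of the gene, 5′ to 3′ on the gene's own strand, from RefSeq (GRCm38.p6), and the capitals mark each CATGTG or its reverse complement CACATG. They lie at chr7:87493513-87493762 (minus strand) for Tyr, chr4:80833963-80834212 (plus) for Tyrp1, chr14:118052247-118052496 (minus) for Dct and chr7:64153585-64153834 (plus) for the first of 2 starts of Trpm1.
Tyr: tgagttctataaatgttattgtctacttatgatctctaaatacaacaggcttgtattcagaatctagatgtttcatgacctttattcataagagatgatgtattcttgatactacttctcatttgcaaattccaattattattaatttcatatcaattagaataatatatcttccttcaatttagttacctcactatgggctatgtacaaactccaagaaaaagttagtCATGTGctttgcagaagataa
Tyrp1: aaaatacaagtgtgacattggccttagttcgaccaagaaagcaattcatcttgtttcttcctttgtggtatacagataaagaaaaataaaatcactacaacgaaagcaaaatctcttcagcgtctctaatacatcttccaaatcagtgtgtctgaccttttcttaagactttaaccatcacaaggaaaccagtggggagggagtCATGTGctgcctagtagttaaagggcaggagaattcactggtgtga
Dct: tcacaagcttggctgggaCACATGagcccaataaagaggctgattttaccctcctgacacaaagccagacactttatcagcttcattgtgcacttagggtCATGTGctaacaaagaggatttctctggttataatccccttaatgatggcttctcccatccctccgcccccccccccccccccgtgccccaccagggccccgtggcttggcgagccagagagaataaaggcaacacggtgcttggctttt
Trpm1: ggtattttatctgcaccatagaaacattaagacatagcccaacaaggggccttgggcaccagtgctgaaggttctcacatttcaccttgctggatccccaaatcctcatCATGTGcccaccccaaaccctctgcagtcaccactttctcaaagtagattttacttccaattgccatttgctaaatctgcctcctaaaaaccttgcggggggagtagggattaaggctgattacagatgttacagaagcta

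The reference table held 11 such windows for 8 of the 10 genes (not Mlana or Slc45a2). Of the 11 windows 6 held the letters, 1 each of Tyr, Tyrp1, Dct, Oca2, Trpm1 and Rpe65. Of all 32851 windows of the same length in the table, 12.3% held them. The longer form TCATGTG (reverse complement CACATGA), which contains the shorter one, was in 4 of the 11 windows, those shown, and in 3.25% of all windows. In Tyr the match began 21 bases before the start of the gene, in Tyrp1 46, in Trpm1 141 and in Dct, for the nearer of its 2 matches, 150. The 3 windows of Mitf and that of Gpnmb held neither form. A match is only a match of letters.

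The values below are normalized signals of a probe, in arbitrary units, and they compare eyes for 1 probe, not 1 gene with another. Differences are on the log2 scale, from limma with Benjamini-Hochberg adjustment over 38659 probes, and a probe was called at an adjusted p under 0.05. The fit pools the spread of all groups, so an SE between the small groups also carries the wide spread of the Ftx-/- eyes. In bulk RNA from eyes whose pigmented layer was removed, fewer cells of a type and less RNA per cell cannot be told apart.

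**Figure D1:**
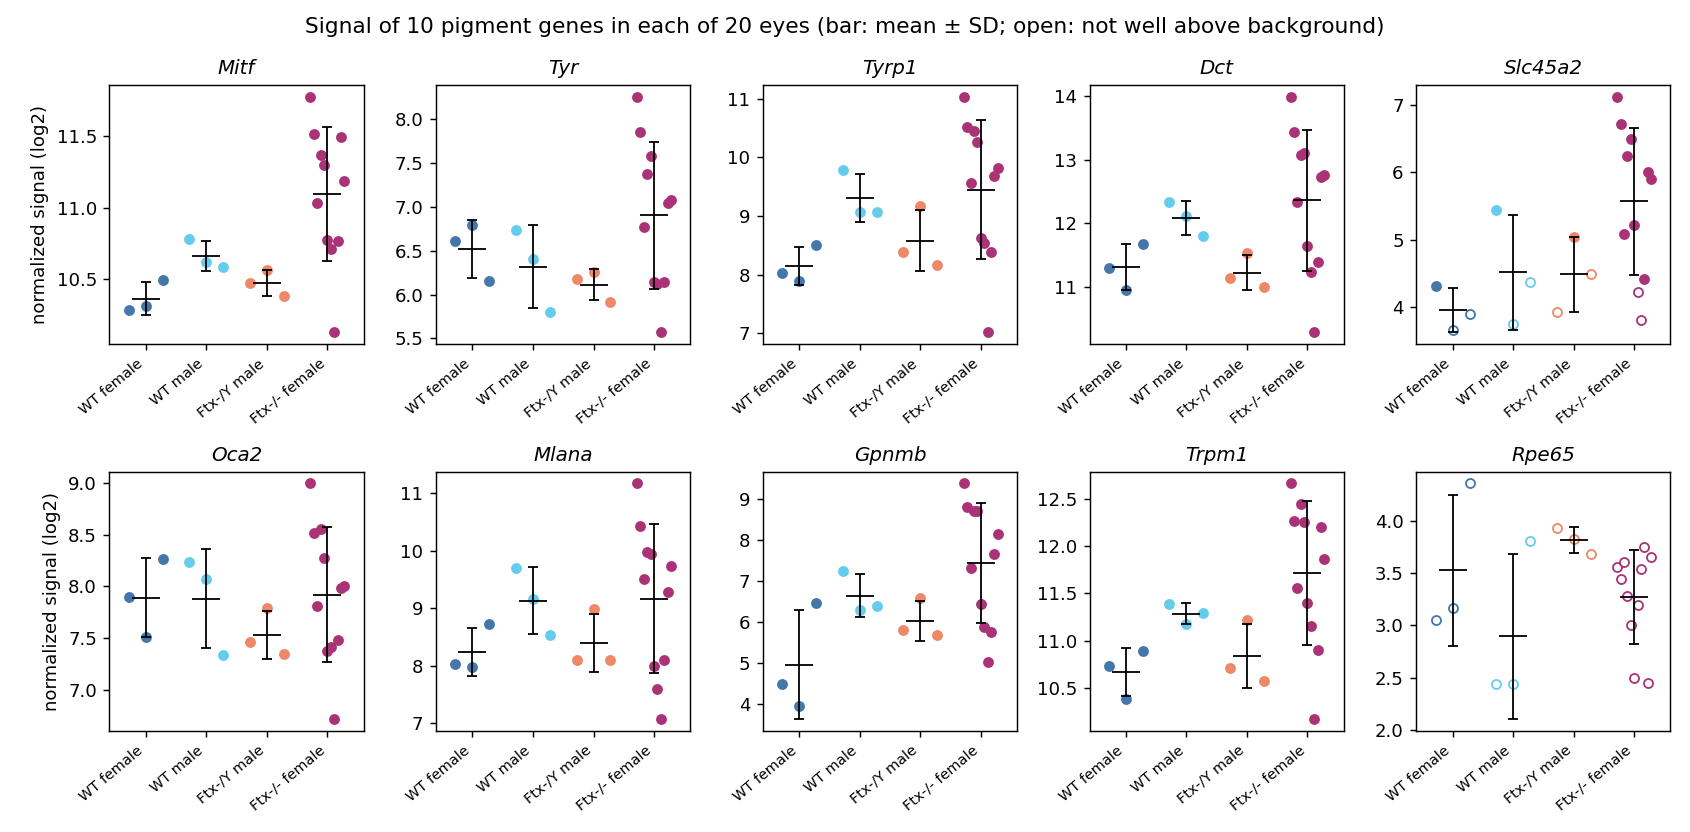
Normalized signal (log2, y axis) of the probe that stands for each of the 10 genes in the 20 eyes, by group, 1 point per eye; the bar is the mean and the whiskers 1 SD, and open points were not well above background. The 11 Ftx-/- female eyes spread more widely than any other group for all 9 tested genes, most narrowly so for Gpnmb (SD 1.46 against 1.32 in WT females), and Rpe65 was open in all 20.

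Mitf, Slc45a2, Gpnmb and Trpm1 were higher in Ftx-/- than in WT females, each by 1 probe. These 4 calls were made among the 14 tested probes of the 10 genes, where 24.6% of all tested probes were called (12.5% higher and 12% lower), so that this share was near the background. At an unadjusted p under 0.05 the count was 7 of 14, against 37.9% of all probes, and by the study's criteria (fold above 1.2 or below 0.8 with that p) also 7, against 30.8%. The methods' t-test gave 10 of 14 at those criteria, against 21.4% of all probes, and 4 after Benjamini-Hochberg adjustment, against 12.6%, with Gpnmb not among these 4 (adjusted p = 0.0544). The other tested genes, Tyr, Tyrp1, Dct, Oca2 and Mlana, did not pass. For all 14 probes the Ftx-/- values overlapped those of the WT females, while 14.2% of all probes did not overlap.

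Mitf, the regulator, was represented by probe A_55_P2176838 (chr6:97971229-97971288, mm9, plus strand). Its signal was 1248, 1275 and 1444 in the WT females, and ran from 1123 through a median of 2329.6 to 3508 in the Ftx-/- females. In all, 10 of the 11 Ftx-/- eyes lay above the WT female mean, and eye 8 lay below all 3 WT females. The difference was 0.73 (SE 0.22, adjusted p = 0.0229 by limma), or 1.66-fold. The second Mitf probe, A_55_P2152437, which lies upstream of it and was made against the same transcript, had signals of 461, 465 and 479 in WT females and of 332 to 1335 in Ftx-/- females, a difference of 0.58 (SE 0.25) with an adjusted p of 0.0955 by limma.

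The 3 enzymes of the melanin pathway were not called. Tyrp1 (A_55_P1953573, chr4:80497524-80497583, plus strand) had signals of 237, 262 and 365 in WT females and of 129.7 to 2100.5, with a median of 821, in Ftx-/- females. All Ftx-/- eyes but eye 8 lay above the WT female mean. The difference was 1.30 (SE 0.57, adjusted p = 0.100 by limma; 95% interval 0.11 to 2.50). Dct (A_55_P1961466, chr14:118412029-118412088, minus strand) had signals of 1985, 2534 and 3288 in WT females and of 1259 to 16235, with a median of 6782, in Ftx-/- females. Of the 11 Ftx-/- eyes, 9 lay above the WT female mean of Dct. The difference was 1.05 (SE 0.52, adjusted p = 0.146 by limma). The other Dct probe overlaps this one in position and gave 1.11 (SE 0.51), with an adjusted p of 0.114.

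Tyr, the first enzyme, had 2 probes. A_66_P135323 (chr7:94632414-94632473, minus strand) had signals of 71.2, 98.0 and 111 in WT females and of 47.6 to 307, with a median of 132, in Ftx-/- females. Of the 11 Ftx-/- eyes 7 lay above the WT female mean, and the difference was 0.38 (SE 0.42, adjusted p = 0.527 by limma). The other, A_51_P102311, sits nearer the far end of the transcript and was well above background on 2 of 31 arrays, both from Ftx-/- eye 1, where its signal was 45.4. It was not tested.

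Of the 2 transporters, Slc45a2 was called and Oca2 was not. Slc45a2 (A_55_P2093569, chr15:10958929-10958988, plus strand) was dim: it was well above background in 1 of 3 WT female, 1 of 3 WT male and 1 of 3 Ftx-/Y eyes, and on 16 of 22 Ftx-/- arrays. Its signals were 12.7, 14.9 and 19.98 in WT females and 14.1 to 139, with a median of 59.6, in Ftx-/- females. The difference was 1.60 (SE 0.56, adjusted p = 0.0438 by limma), higher in 10 of 11 eyes, but with 2 of the 3 WT females not well above background its size is uncertain. It was 0.86 and not called with 75th percentile normalization, and 0.60 after normexp background correction. Oca2 (A_51_P162144, chr7:63791667-63791726, plus strand) had signals of 182, 239 and 308 in WT females and of 105 to 510.0, with a median of 253, in Ftx-/- females. Its difference was 0.03 (SE 0.34, adjusted p = 0.959 by limma; 95% interval -0.67 to 0.73).

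Of the 2 melanosome membrane proteins, Gpnmb was called and Mlana was not. Gpnmb (A_51_P438967, chr6:49006386-49006445, plus strand) had signals of 15.4, 22.5 and 87.9 in WT females and of 32.8 to 668, with a median of 203, in Ftx-/- females. All 11 Ftx-/- eyes lay above the WT female mean on the log2 scale, while WT female 4 lay above 4 of them. The difference was 2.48 (SE 0.75, adjusted p = 0.0215 by limma), or 5.58-fold, with a 95% interval from 0.92 to 4.04. It was 3.23 without WT female 4, 1.69 and not called with 75th percentile normalization, and 1.33 after normexp background correction. Mlana (A_55_P1953402, chr19:29782737-29782796, plus strand) had signals of 254, 261 and 424 in WT females and of 135 to 2296, with a median of 729, in Ftx-/- females. Its difference was 0.92 (SE 0.62, adjusted p = 0.293 by limma).

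Trpm1 had 4 probes, which did not move alike. A_51_P338031 (chr7:71369544-71369603, plus strand), made against the short transcript NM_018752, had signals of 1339, 1696 and 1902 in WT females and of 1156 to 6482, with a median of 3724, in Ftx-/- females. Its difference was 1.05 (SE 0.36, adjusted p = 0.0414 by limma), higher in 10 of 11 eyes. A_55_P2043777, at chr7:71363401-71363460, had a difference of 0.63 (SE 0.35, adjusted p = 0.195). The 2 probes made against the long transcript NM_001039104 lie farther along the gene, at chr7:71371607-71371666 (A_55_P2043782) and chr7:71413940-71413999 (A_55_P2037997). Their differences were 0.45 (SE 0.53, adjusted p = 0.552) and -0.01 (SE 0.27, adjusted p = 0.986).

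The sequence of A_55_P2043782 is shown because it did not follow the other pigment gene probes from eye to eye, with capitals for its longest run of A and G, 34 of 60 bases.
A_55_P2043782: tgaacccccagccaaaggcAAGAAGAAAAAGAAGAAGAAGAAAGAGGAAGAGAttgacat
Over the 11 Ftx-/- eyes, A_51_P338031 and A_55_P2043777 had correlations with Tyrp1 of 0.977 and 0.969, as a description. The same correlation was -0.09 for A_55_P2043782 and 0.28 for A_55_P2037997. The eye with the highest signal of A_51_P338031 was eye 1, and that with the highest signal of A_55_P2043782 was eye 4. The mean over all 4 probes gave a Trpm1 difference of 0.53, which was not called.

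Rpe65 (A_55_P2043237, chr3:159287714-159287773, plus strand) was not well above background on any of the 31 arrays. Its signals ran from 5.41 to 20.5 over all 20 eyes. No difference is given for it.

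None of these 4 calls held without WT female 1 (10.1% of all probes called) or without WT female 2 (13.4%). None held with the slide as a fixed block (0.199%) or a random block (11.7%), or with the scan day as a block (0.233%), and without Ftx-/- eye 8 the count was 9 of 14 (24.2%). Nor did any hold with the Ftx-/- eyes of slide 4 alone (16.8%). Over these 6 settings in which all 4 calls were lost, the difference was 0.53 to 1.08 for Mitf, 0.77 to 1.78 for Slc45a2, 1.69 to 3.21 for Gpnmb and 0.62 to 1.31 for Trpm1. Since slide and genotype coincide in females, their parts cannot be told apart.

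**Figure D2:**
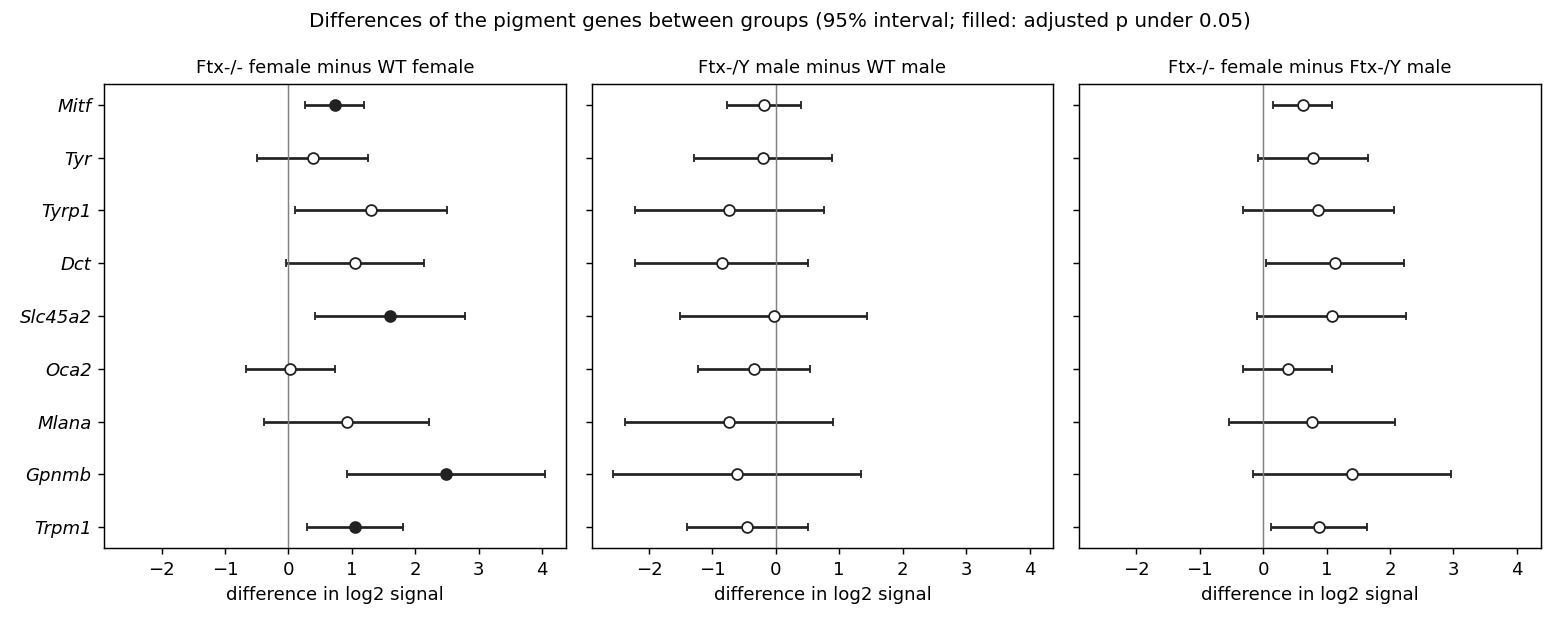
Differences in log2 signal (x axis) of the 9 tested genes in 3 comparisons, with 95% intervals from the limma fit; filled points were called at an adjusted p under 0.05. There are 4 filled points in the comparison of the females, and none in the other 2.

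In males, no probe of the set was called between Ftx-/Y and WT eyes, where 0.0362% of all probes were called. At an unadjusted p under 0.05 the count of the set was also 0 of 14 by limma, against 13.5% of all probes, while the methods' t-test gave 2 of 14 at the study's criteria (5.89% of all probes), both lower, and limma 0 at those criteria (11.3%). All 14 differences were below 0, between -0.85 and -0.03. The sign turned without WT male 1 for Slc45a2 (0.43) and Tyr (0.0074), and for Slc45a2 in other settings as well. For 3 of the 14 probes (both of Dct and 1 of Mitf) the male groups did not overlap, against 21% of all probes. For Dct the 3 WT males had 3570.3, 4418 and 5151 and the 3 Ftx-/Y males 2060.4, 2259.6 and 2982. The Dct difference was -0.85 (SE 0.65, adjusted p = 0.590; 95% interval -2.21 to 0.51). For Tyrp1 the WT males had 535, 539.5 and 879.8 and the Ftx-/Y males 288, 336 and 575. The ranges of Tyrp1 overlapped, and the difference was -0.73 (SE 0.72, adjusted p = 0.687).

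Gpnmb in males had 79.2, 83.7 and 153 in WT and 52.0, 56.5 and 96.8 in Ftx-/Y eyes, a difference of -0.61 (SE 0.94, adjusted p = 0.816). For Mitf the WT males had 1538, 1576 and 1763 and the Ftx-/Y males 1338, 1425 and 1516. The difference was -0.19 (SE 0.28, adjusted p = 0.811). The second Mitf probe overlapped, with 535 to 677 in WT and 491 to 612 in Ftx-/Y males. On slide 1 alone, which holds the WT males and Ftx-/Y eye 1, the difference was -0.91 for Tyrp1, -0.94 for Dct and -0.83 for Gpnmb; with 1 Ftx-/Y eye these are given as values only.

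The female change minus the male change asks whether the deletion acted differently in the sexes. No probe of the set was called for it, nor any of the 38659 probes (0% called). At an unadjusted p under 0.05, 6 of the 14 probes passed by limma, against 10.8% of all probes, and 6 by the study's criteria, against 9.59%. These were the probes for Tyrp1, Dct (both), Mitf, Gpnmb and Trpm1, with values of 2.03 for Tyrp1, 1.90 for Dct, 0.92 for Mitf, 3.09 for Gpnmb and 1.497 for Trpm1, each with an adjusted p between 0.364 and 0.435.

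Without the deletion, no probe differed by the adjusted threshold between WT females and WT males, where 0.378% of all probes were called; at an unadjusted p under 0.05 the count was also 0 of 14 by limma (12.8% of all probes), as it was by the study's criteria (10.7%), and the methods' t-test gave 2 of 14 at those criteria (2.7%), both lower. For 6 of the 14 probes (Tyrp1, both of Dct, both of Mitf and the Trpm1 probe A_51_P338031) the WT female values all lay below those of the 3 WT males, and 15.8% of all probes did not overlap. By limma the difference was -1.16 (SE 0.72, adjusted p = 0.517) for Tyrp1, -0.77 (SE 0.65, adjusted p = 0.666) for Dct and -1.69 (SE 0.94, adjusted p = 0.470) for Gpnmb. These SEs also use the pooled spread. The Tyrp1 SD was 0.33 in WT females, 0.41 in WT males and 1.19 in Ftx-/- females. With the 2 WT groups fitted alone, no probe of the set was called, against 0.204% of all probes. Gpnmb overlapped, since WT female 4 had 87.9 and WT male 2 had 79.2.

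With the deletion, no probe was called between Ftx-/- females and Ftx-/Y males, where 1.08% of all probes were called, and 5 of 14 passed at an unadjusted p under 0.05 by limma (14.9% of all probes) and by the study's criteria (11.1%). These were both Dct probes, 1 Mitf probe and 2 Trpm1 probes, all higher in the females. The methods' t-test gave 11 of 14 at the study's criteria (15% of all probes) and 1 after Benjamini-Hochberg adjustment (6.15%). The differences were 1.13 (SE 0.52, adjusted p = 0.316) for Dct, 0.62 (SE 0.22, adjusted p = 0.205) for Mitf and 0.88 (SE 0.36, adjusted p = 0.266) for the Trpm1 probe A_51_P338031. Without Ftx-/- eye 8, 1 probe of the set was called, that of Mitf, against 1.39% of all probes. Within slide 2, with Ftx-/- eyes 1 to 3 and Ftx-/Y eyes 2 and 3, the difference was 1.98 for Dct, 0.97 for Mitf and 1.27 for Trpm1, and no probe of the set was called, against 0.186% of all probes. The comparisons above share groups, so their values are not independent of one another.

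The Ftx-/- eyes differed widely among themselves in these genes. Averaged over the 9 tested genes, each centred on its mean over the 20 eyes, the log2 value was 1.77 in Ftx-/- eye 1, 1.29 in eye 2, 1.09 in eye 4 and 1.06 in eye 5. It was 0.67 in eye 11, 0.63 in eye 10 and 0.29 in eye 3. It was -0.31 in eye 6, -0.56 in eye 9, -0.62 in eye 7 and -1.40 in eye 8. Eyes 1, 2, 4 and 5 were thus the highest of all 20 eyes, and eye 8 was the lowest, below every WT eye.

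The other groups lay between these ends. The WT females had -0.998 (eye 2), -0.75 (eye 1) and -0.37 (eye 4), the WT males -0.36, -0.20 and 0.36, and the Ftx-/Y males -0.75, -0.69 and -0.14. Ftx-/- eyes 7 and 9 lay within the range of the WT females, eye 8 lay below it and the others lay above it.

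**Figure D3:**
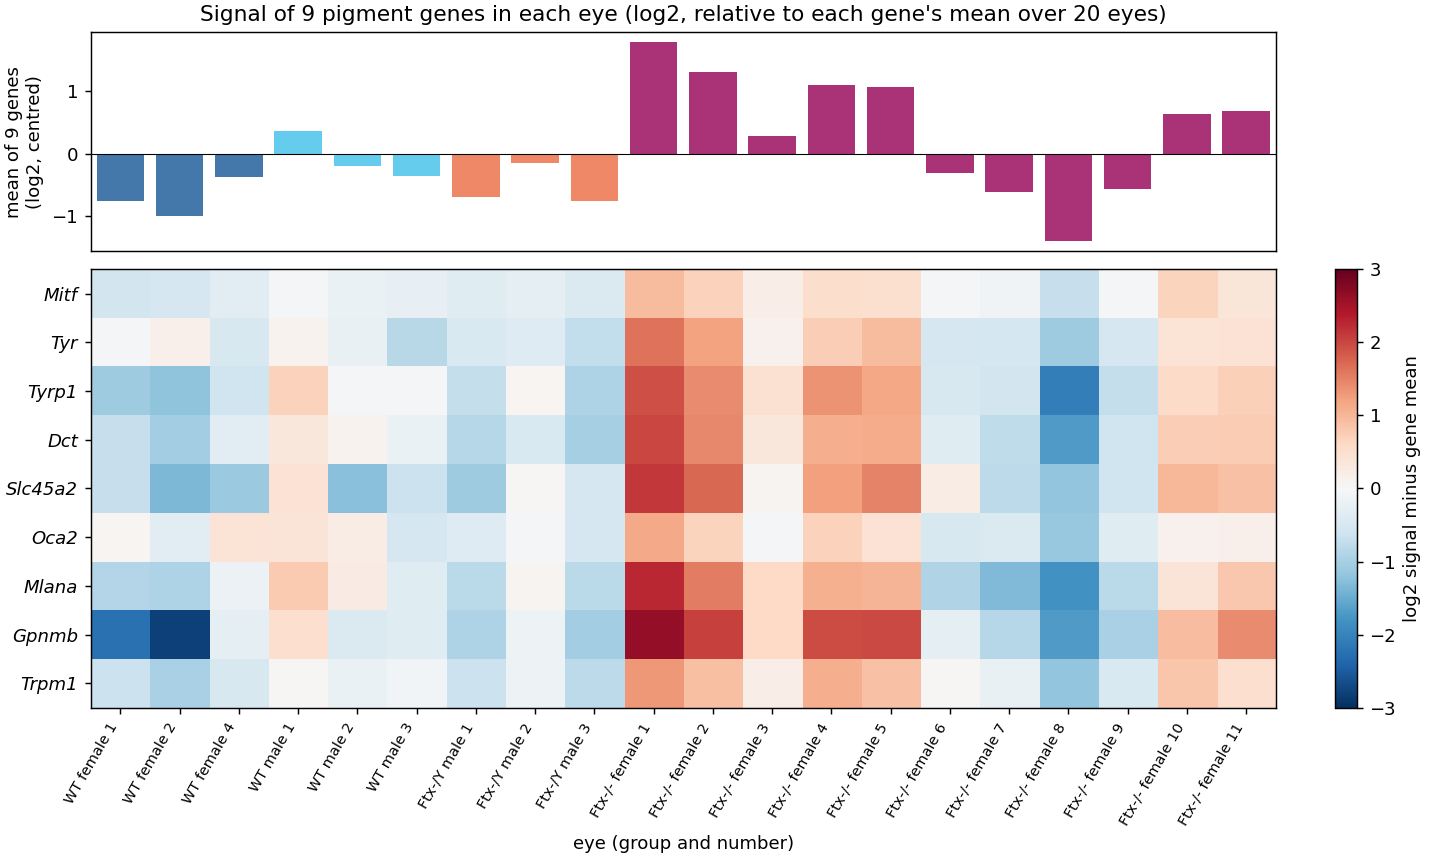
Log2 signal of the 9 tested genes in each of the 20 eyes, relative to the gene's mean over all eyes (colour, from -3 to 3), with the mean over the 9 genes as bars above, coloured by group. Most Ftx-/- columns are of 1 colour from top to bottom, with means from 1.77 in Ftx-/- eye 1 to -1.40 in Ftx-/- eye 8. Every WT female column holds values of both signs, that of WT female 2 running from -2.80 to 0.16.

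The differences between eyes were larger than those between arrays of 1 eye. For Tyrp1 the SD between the 11 eyes was 1.19 and that between the 2 arrays of an eye 0.0982, a ratio of 12.1. For Mlana the ratio was 22.6, for Trpm1 (A_51_P338031) 17.9, for Dct 17.8, for Gpnmb 13.8 and for Oca2 7.38. Tyr, Mitf and Slc45a2 had ratios of 4.33, 4.15 and 3.75. The median over all probes tested was 1.66.

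**Figure D4:**
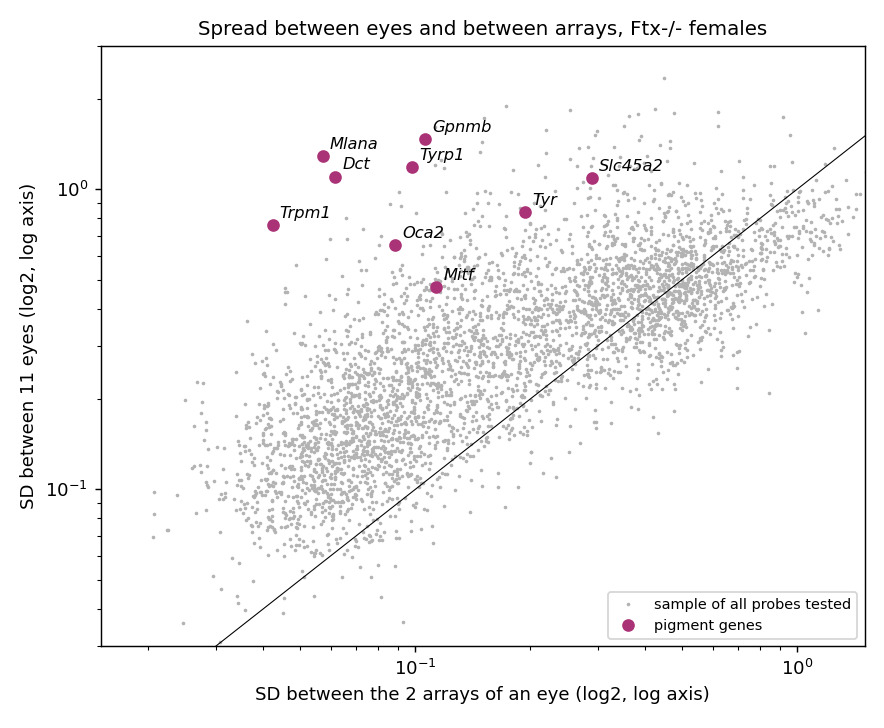
SD between the 11 Ftx-/- eyes (y axis) against SD between the 2 arrays of an eye (x axis), both of log2 signal on log axes; purple points are the 9 tested genes, grey points a sample of all probes tested, and the line marks equal SDs. All 9 genes lie above the line, with ratios from 3.75 to 22.6.

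Tyrp1 was taken as the reference for how the genes moved together from eye to eye. Over the 11 Ftx-/- eyes, Pearson's r with Tyrp1 was 0.990 for Dct, 0.982 for Oca2, 0.980 for Gpnmb, 0.977 for Trpm1, 0.971 for Tyr, 0.970 for Mlana, 0.965 for Mitf and 0.949 for Slc45a2. Spearman's rho was 0.936 for Mitf, 0.955 for Oca2 and 0.964 to 0.991 for the other 6. In the permutation tests of r (100000, two-sided) 7 of these 8 genes had p = 1e-05, the smallest that the permutations can give, and Mitf had p = 5e-05; adjusted over the 9 relations the p-values were 1.29e-05 and 5.62e-05. For rho the permutation p-values were between 1e-05 and 8e-05, and between 3e-05 and 9e-05 after adjustment.

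The relation did not rest on the ends. Without eyes 8 and 1, the 2 farthest from the median of Tyrp1, r was 0.911 for Mitf, 0.926 for Slc45a2 and between 0.945 and 0.989 for the other 6. With the mean of each slide taken out, r was between 0.937 (Slc45a2) and 0.992 (Dct), with permutation p-values of 0.0003 to 0.00168. No slide holds 6 of these eyes, so r was not computed within a slide. The relation of Rpe65, counted among the 9 in the adjustment, is not given, since its probe was at background on every array.

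**Figure D5:**
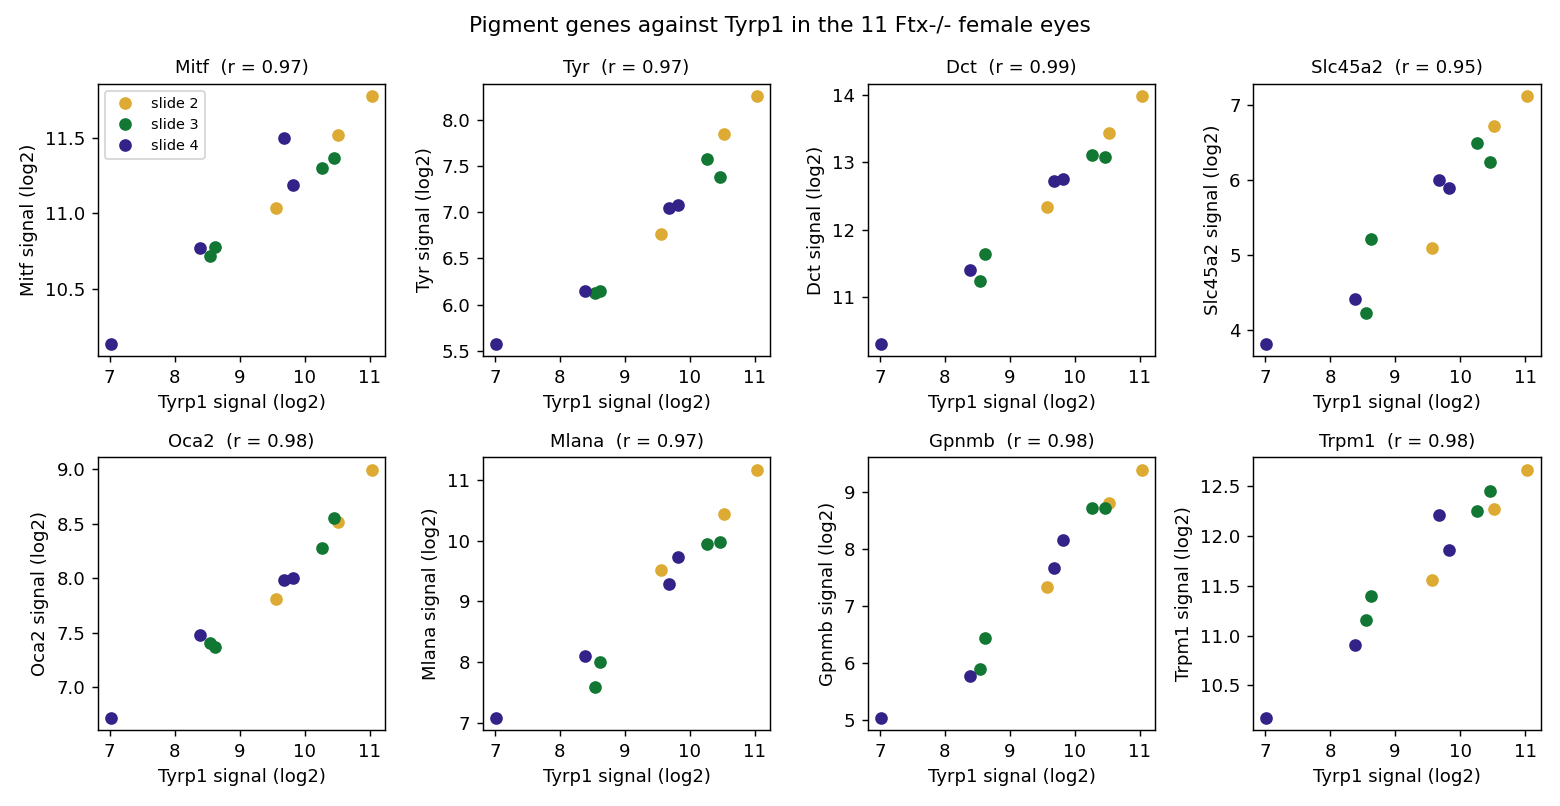
Log2 signal of 8 genes (y axes) against that of Tyrp1 (x axis) in the 11 Ftx-/- female eyes, 1 point per eye, coloured by slide. The points run along 1 line in every panel, with r from 0.95 to 0.99, and the eyes of slides 2, 3 and 4 lie along the same line.

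The level also differed between slides. The mean log2 signal of Tyrp1 was 10.37 over the 3 Ftx-/- eyes of slide 2, 9.47 over the 4 of slide 3 and 8.73 over the 4 of slide 4, and that of Dct was 13.25, 12.26 and 11.80. Within slide 3 Tyrp1 ran from 374 to 1406, and within slide 4 from 129.7 to 906. Against the WT females, the eyes of slide 2 alone gave 10 of 14 called probes of the set (18.2% of all probes), those of slide 3 alone 6 (27.8%) and those of slide 4 alone 0 (16.8%), a split chosen after seeing the data.

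The genes whose pattern over the 20 eyes was most like the mean of the 9 were, apart from these genes themselves, Bace2 (r = 0.992), Tspan10 (0.978), Pmel (0.961), Krt18 (0.956) and Slc4a5 (0.949), of 15838 genes ranked. Bace2 encodes a protease that cleaves the melanosome protein PMEL, Tspan10 a tetraspanin, Pmel the protein of the melanosome's fibrils, Krt18 a keratin of simple epithelia and Slc4a5 a bicarbonate transporter. Bace2 ranged from 140.04 to 1652 over the 20 eyes, Pmel from 617 to 9389 and Krt18 from 1358 to 8539. Dct (0.990) and Tyrp1 (0.982) ranked just behind Bace2, but both are part of that mean.

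The counts of the lists that follow stand beside the 24.6% of all probes called between the female groups. Of 11 other genes of melanosome proteins tested, 4 were higher and 1 was lower in Ftx-/- than in WT females, with a median difference of 0.38 against -0.01 over all probes. The higher ones were Gpr143, a receptor of pigment cells (1.66, SE 0.60, adjusted p = 0.0483), Tspan10 (1.58, SE 0.52, adjusted p = 0.0335), Rab27a, a GTPase of melanosome transport (1.03, SE 0.34, adjusted p = 0.0340), and Myo5a, the motor it recruits (0.38, SE 0.12, adjusted p = 0.0301). Cited1, a transcriptional cofactor, was lower (-0.22, SE 0.08, adjusted p = 0.0392). Pmel had 0.81 (SE 0.57, adjusted p = 0.309). Over the 11 Ftx-/- eyes Gpr143 had a correlation of 0.969 with Tyrp1 and Myo5a one of -0.909, as a description.

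Of 17 genes of the complexes that build melanosomes and other lysosome-related organelles in many cell types, 1 was higher and 3 were lower, a share near that of all probes, with a median of -0.06. Hps5 was higher by 0.50 (SE 0.07, adjusted p = 8.93e-05), and Bloc1s3, Hps1 and Bloc1s1 were lower, with -0.62 (SE 0.14, adjusted p = 0.00406), -0.48 (SE 0.12, adjusted p = 0.00827) and -0.29 (SE 0.10, adjusted p = 0.0416).

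Of 12 other genes of the retinal pigment epithelium 1 was higher, Rdh5, a retinol dehydrogenase of the visual cycle (0.49, SE 0.16, adjusted p = 0.0358), with a median of 0.20. Best1 was not well above background in any eye and Lrat in 1 eye. Of 8 melanoblast and neural crest genes 2 were higher, Mcam (1.24, SE 0.28, adjusted p = 0.00431) and Snai2 (0.62, SE 0.19, adjusted p = 0.0222). In males, and between the WT groups, no gene of these 4 lists was called.

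Markers of tissue around the eye differed as well. Of 10 genes of periocular mesenchyme, 9 were higher in Ftx-/- than in WT females, and their median difference was 2.22. Lum had 3.24 (SE 0.85, adjusted p = 0.00975), Dcn 2.50 (SE 0.83, adjusted p = 0.0335) and Postn 2.26 (SE 0.76, adjusted p = 0.0352). The summed signal of the list was 636 to 1693 in WT females, 1377 to 6996 in WT males, 1666 to 4450 in Ftx-/Y males and 2097 to 27413 in Ftx-/- females. Over the 11 Ftx-/- eyes the median correlation with Tyrp1 was 0.73 for muscle, 0.68 for surface ectoderm and -0.54 for lens genes. It was between -0.17 and 0.46 for neural retina, erythroid, endothelial and macrophage genes. For the 10 mesenchyme genes the median was 0.74, with correlations between 0.620 and 0.832, as a description. The count fell to 0 of 10 without WT female 1, with the slide or the scan day as a fixed block and by the methods' t-test after Benjamini-Hochberg adjustment, to 4 without WT female 2, to 3 with the slide as a random block and to 2 with the Ftx-/- eyes of slide 4 alone. Of the 10, 5 were well above background in all 20 eyes and none was at background in every eye. Its part in the pigment values was not tested.

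Lens genes ran the other way in the females. Of 10, 8 were lower in Ftx-/- than in WT females, with a median of -0.52, and their summed signal was 1458570 to 1528220 in WT females and 1105990 to 1436730 in Ftx-/- females. The lens count is given for the reported fit only, and slide and genotype coincide here too. Crygb, a crystallin, had -0.95 (SE 0.17, adjusted p = 0.000667) and Bfsp1, a lens filament protein, -1.11 (SE 0.18, adjusted p = 0.000361). Of 10 neural retina genes 1 was higher and 1 lower, of 6 erythroid genes 3 were higher, of 11 macrophage genes 2, of 5 muscle genes 1, and of 8 endothelial and 7 surface ectoderm genes none passed. The part of these in the pigment values was not tested.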

How the data were processed

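Per the labels and the study's methods, Cy3-labelled RNA of each eye was hybridised to Agilent mouse arrays, 8 per slide, and the deposited spot intensity was read with Feature Extraction (11.0.1.1). The authors' series table holds the processed signal of the same arrays, not normalized between arrays, and its log2 was used as an alternative. Here the processed signal of 31 arrays was normalized by qspline, the study's method, rewritten in R 4.3.3 (floor of 1 before log2). Control spots (3671 of 62976 on each array) and outlier spots (120 non-uniform and 5639 population outliers over all 31 arrays) were left out. Spots of a probe were averaged, and so were the 2 arrays of an Ftx-/- eye, whose correlation was 0.981 to 0.995. The second arrays of Ftx-/- eyes 2 and 3 appear to hold rounded values, with median signals of 39.8 and 40. Between 48.2% and 70.4% of spots per array were well above background. limma 3.58.1 (trend) was fitted to 20 eyes with 4 group means on the 38659 of 55681 probes well above background in at least 3 eyes. The spread is pooled over the 4 groups, so SEs of a probe differ between comparisons only by how many eyes there were. The median SE was 0.210 for the females and 0.263 for the males. Where a gene had several probes, that with the highest mean over all eyes stands for it. Permutation tests used 100000 draws. The fit was also run on simulated data, whose outcome is not given here. Named genes are the 10 chosen genes, the 5 most like their mean and called genes of the pathway lists; other genes given were picked after their values were seen. The genes and lists were chosen with earlier results of these data known. Alternatives were other normalizations, filters, blocks, tests and left-out eyes. Probe positions are those of the array files (mm9); promoters come from RefSeq (GRCm38.p6). Some genes of the lists are not reported here.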

Additional observations from a re-analysis of the deposited data

Results flagged for a closer look

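The Gpnmb probe A_51_P438967 lay on opposite sides of the WT mean in the sexes on the log2 scale: all 11 Ftx-/- female eyes lay above the WT female mean and all 3 Ftx-/Y male eyes below the WT male mean. The probes that stand for Tyrp1, Mitf and Trpm1 came near, with 10 of 11 female eyes above and 0 of 3 male eyes above. For Gpnmb the female change minus the male change was 3.09 (SE 1.201, adjusted p = 0.364 by limma), which did not pass the threshold. The male difference, -0.61 (SE 0.94, adjusted p = 0.816 by limma), did not pass either, and the female call (2.48) was lost without WT female 1 (2.24) or 2 (1.97) and with the slide as a fixed (3.21) or random block (2.55). It was also lost with the scan day as a block (2.15), 75th percentile normalization (1.69), the series table (1.93), the Ftx-/- eyes of slide 4 alone (1.69) and the methods' t-test after Benjamini-Hochberg adjustment (2.62).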

How the results depend on the processing

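Percentages are the share of all probes called in the same setting. The count of called pigment probes between Ftx-/- and WT females, 4 in the reported fit (24.6%), was 2 with 75th percentile normalization (26.8%), with a minimum signal of 500 in WT females (of 5 tested, 35.1%) or over all eyes (of 8 tested, 35%), without a filter (15.8%) and with the 2 groups fitted alone (21.8%). It was 0 with the slide as a fixed (0.199%) or random block (11.7%) and with the scan day as a block (0.233%), 7 by the study's criteria (30.8%) and 10 by the methods' t-test at those criteria (21.4%). It was 10 with the eyes of slide 2 alone (18.2%) and 0 with those of slide 4 alone (16.8%; both chosen after seeing the data). Leaving out 1 eye gave 0 (without WT female 1, 10.1%, or 2, 13.4%) to 9 (without Ftx-/- eye 8, 24.2%), and 2 without WT female 4 or Ftx-/- eye 1, 2, 4, 5, 10 or 11 (22.8% to 27.5%). Between Ftx-/- females and Ftx-/Y males, 0 in the reported fit, the count was 5 by the study's criteria (11.1%), 11 by the methods' t-test (15%) and 1 by it after Benjamini-Hochberg adjustment (6.15%), and 0 to 1 with 1 eye left out (1 without Ftx-/- eye 8, 1.39%). The methods' t-test gave 2 for Ftx-/Y against WT males (5.89%) and 2 for WT females against WT males (2.7%), and the study's criteria gave 6 for the difference of the changes (9.59%). The replicate number as a block gave 11 in the females (9.81%) and 7 between the mutants (0.385%). The numbers were not taken to pair the eyes in the reported fit. Same-numbered eyes had correlations of -0.33 to 0.31, given without those of other pairs, so they cannot settle whether the numbers mark shared litters or handling. Uncalled differences that changed sign were Oca2 in females (75th percentile -0.042, second arrays alone -0.018, scan day -0.077, slide 4 alone -0.34, and -0.16 to 0.22 with 1 eye left out), Tyr in females (slide 4 alone -0.064), Tyr in males (-0.46 to 0.0074 with 1 eye left out) and Slc45a2 in males (quantile 0.000145, and -0.42 to 0.43 with 1 eye left out). The cause was not tested. The 8 relations to Tyrp1 of genes above background kept their side of the threshold with slide means taken out, 75th percentile or quantile normalization and either array of an eye alone. The 75th percentile moved the median female difference of all probes from -0.01 to -0.18 and the higher and lower calls from 4844 and 4656 to 3619 and 6737. The series table gave 2826 and 771.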
